A study of Mus musculus with 8 samples.

Results

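Inflammasomes are cytosolic protein complexes that sense infection or damage and activate caspase-1. The 10 genes described here are the sensors Nlrp1a, Nlrp1b, Nlrp6, Nlrc4, Naip1, Naip2, Naip5 and Naip6, together with the protease Casp1 and its substrate Il18. They were taken by name from the count table of a study of mouse jejunum (the stretch of small intestine between duodenum and ileum) and are 10 of its 56941 genes. Both Nlrp1 and Naip are families of neighbouring gene copies that vary in number and sequence between inbred mouse strains, so each value below belongs to 1 copy as the reference genome has it. The study sequenced RNA from whole jejunum of naive C3H/HeJ (C3H) and naive C57BL/6 (B6) mice. The series is titled for food anaphylaxis and leukotriene-dependent uptake of allergen, and the strains are compared here without challenge. Both strains shared the same conditions: the labels give an age of 6 to 8 weeks, at least 8 weeks of housing together before harvest, and batch 1 for every library, without stating whether the age is that at the start of housing. There were 4 C3H libraries (replicates 1, 3, 4 and 5) and 4 B6 libraries (replicates 2, 3, 4 and 5). The labels do not say that each library is a separate mouse, so the p-values rest on the spread among libraries, which may be technical.

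The sensors do not all answer to the same signal. In mice, NLRP1B is cut by the lethal factor protease of anthrax toxin, and its response to that toxin differs between inbred strains. NAIP proteins bind bacterial ligands directly, flagellin in the case of NAIP5 and NAIP6 and type III secretion parts in the case of NAIP1 and NAIP2, and then recruit NLRC4. In the intestinal epithelium the NAIP and NLRC4 complex is known for the expulsion of infected cells. NLRP6 is a sensor that is abundant in intestinal epithelial cells. Active caspase-1 matures the cytokine interleukin-18, which epithelial cells make constitutively, and cuts gasdermin D, which opens pores in the membrane.

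The libraries held 37205896 to 58251332 counts each, and 25155 to 26483 genes had at least 1 count. Of 18025 genes tested, 3857 (21.4%) passed an adjusted p of 0.05 between the strains, 11.3% higher and 10.1% lower in C3H. The test throughout was edgeR's quasi-likelihood test with Benjamini-Hochberg adjustment over all genes tested. Levels are CPM, a gene's counts relative to the size of its library, on library sizes scaled by TMM, an edgeR method that aligns the bulk of genes between libraries. The enterocyte markers that define the tissue were present in all libraries, and 0 of 7 passed the test. Their summed level was 38488 to 62707 CPM in C3H and 42500 to 53993 CPM in B6. Some markers of other cell types did move with strain. Goblet cell markers summed to 8205 to 11177 CPM in C3H and 10295 to 12586 CPM in B6, with 2 of 6 lower in C3H (Zg16 and Agr2), and Paneth cell markers to 1784 to 2785 CPM in C3H and 1900 to 2835 CPM in B6, with 1 of 5 lower (Ang4). T cell markers summed to 56.8 to 78.5 CPM in C3H and 95.4 to 119.5 CPM in B6, with 6 of 7 lower and 1 higher in C3H, while macrophage markers summed to 417 to 517 CPM in C3H and 364 to 431 CPM in B6, with 2 of 8 higher. Neutrophil markers summed to 5.12 to 5.61 CPM in C3H and 3.77 to 4.17 CPM in B6, with 2 of 3 tested markers higher (Cxcr2 and Retnlg). Csf3r was level, at 2.30 CPM in C3H and 2.25 CPM in B6. Among markers too low to test, S100a8 (0.0232 against 0.0804 CPM) and S100a9 (0.0275 against 0.0799 CPM) averaged less in C3H. Mmp8 averaged more (0.0259 against 0.0159 CPM). B and plasma cell markers summed to 751 to 1010 CPM in C3H and 1135 to 1379 CPM in B6, with 1 of 5 lower. That was Jchain, which made up most of the sum (858 CPM in C3H, 1194 CPM in B6), while Mzb1 had a higher mean in C3H and did not pass. No marker in these lists was at 0 in a strain. The part of these cells in the results below was not tested. Pancreatic transcripts were most abundant in 2 C3H libraries, 2575 CPM in replicate 3 and 1155 CPM in replicate 5, against 7.26 to 213 CPM in the other libraries.

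Of the 10 inflammasome genes, all were tested and 3 (30%) passed the threshold, beside 21.4% of all genes tested. All 3 were at least 2-fold lower in C3H. Of all genes tested, 3.56% passed and were at least 2-fold lower in C3H. They were Nlrp1b, Nlrp1a and Naip6, and they were also the genes whose 4 values in C3H lay wholly apart from the 4 in B6, a pattern shown by 24.4% of all genes tested. Nlrp1a had enough counts to be tested only in B6, so its call and its lack of overlap are not independent of that selection. The other 7 of the 10 genes passed in neither direction. The median log2 fold change of the 10 genes was -0.18, beside 0.03 over all genes tested. In bulk tissue, fewer cells that express a gene and less of its RNA per cell cannot be told apart. The libraries were aligned to a reference genome of the B6 strain, so for copies whose sequence differs in C3H, less RNA and fewer reads placed on the B6 copy cannot be told apart either. In another fit, the 4 libraries that held the most pancreatic transcripts (C3H 3 and 5, B6 2 and 3) were left out. With the remaining 2 libraries per strain, 4 of the 10 genes passed, all lower in C3H, the fourth being Naip5. In that fit 1675 of 18560 genes tested passed, 822 of them lower in C3H.

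**Figure D1:**
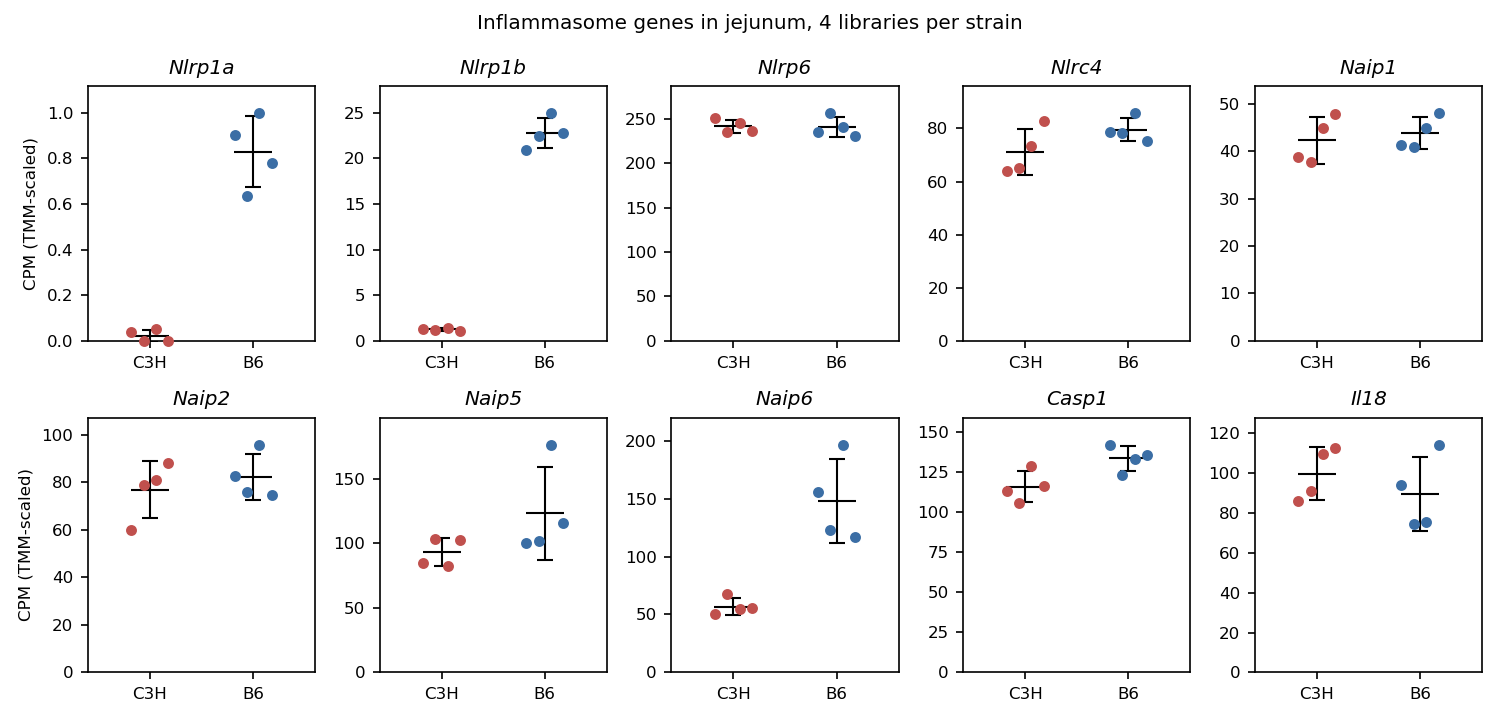
Level of each of the 10 inflammasome genes in every library, in CPM on TMM-scaled library sizes, with C3H on the left and B6 on the right of each panel; points are libraries and the lines show the mean and SD of the 4. Nlrp1a, Nlrp1b and Naip6 had all C3H points below all B6 points, and the points of the other 7 genes overlapped between strains.

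The Nlrp1 cluster lies on chromosome 11, where the annotation places Nlrp1a (ENSMUSG00000069830) and Nlrp1b (ENSMUSG00000070390) beside each other on the minus strand. Their coding sequences in the B6 reference (GRCm38) were 86.5% identical over 3526 aligned bases, with 476 mismatches. The same stretch of exon 2 is shown for both copies, because how far they differ sets whether a read can be given to 1 of them. Capitals mark bases that differ from the other copy, and this is the first 90-base window with the median number of mismatches, 9. Nlrp1b is at chr11:71182628-71182717 and Nlrp1a at chr11:71124029-71124118, both read on the minus strand.
Nlrp1b: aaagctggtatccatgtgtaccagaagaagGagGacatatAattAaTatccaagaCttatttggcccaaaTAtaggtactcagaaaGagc
Nlrp1a: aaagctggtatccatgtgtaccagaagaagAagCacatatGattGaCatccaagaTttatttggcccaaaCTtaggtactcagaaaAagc
Exact copies of a 50-base stretch elsewhere in the annotated transcripts made up 2.07% of Nlrp1a and 1.45% of Nlrp1b, and of a 100-base stretch 0.0689% and 0.0476%.

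Nlrp1b, the anthrax toxin sensor, had 1.32, 1.25, 1.41 and 1.05 CPM in C3H, against 20.9, 22.4, 24.9 and 22.7 CPM in B6. Every C3H library lay far below every B6 library, and the libraries of a strain differed little from each other. The means were 1.25 ± 0.152 CPM in C3H and 22.8 ± 1.65 CPM in B6 (SD, n = 4 each), which rest on 226 counts in C3H and 4277 in B6. Its log2 fold change was -4.18 (standard error 0.12, 95% interval -4.43 to -3.92, edgeR adjusted p = 1.46e-09). Among the 18025 genes tested this was the 181st place by size of the fold change.

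Nlrp1a, the neighbouring copy of the sensor, was near the limit of detection in C3H. It had 2, 0, 2 and 0 counts in the C3H libraries and 34, 26, 54 and 42 counts in the B6 libraries. That is 0.0393, 0, 0.0512 and 0 CPM in C3H, against 0.903, 0.637, 0.998 and 0.780 CPM in B6. Every B6 library had reads from the gene, while 2 of 4 C3H libraries had none. The ratio of B6 over C3H was 37.5 on the 4 C3H and 156 B6 counts, with a 95% counting interval of 14.4 to 139. The fitted log2 fold change was -5.06 (standard error 0.48, edgeR adjusted p = 2.20e-05) and ran from -5.63 to -4.63 when any 1 library was left out. Nlrp1a met the filter's minimum count of 10 only in the B6 libraries. It was thus tested only through the strain where it is high, and its call adds little to the counts themselves. The summed level of both copies was 1.35, 1.25, 1.46 and 1.05 CPM in C3H, against 21.8, 23.1, 25.9 and 23.5 CPM in B6. This sum does not depend on how reads were split between the copies, and its strains did not overlap (log2 ratio -4.21, exact two-sided permutation p = 0.0286, the smallest that 4 against 4 allows). Another copy, the pseudogene Nlrp1c-ps, had 0 counts in all 8 libraries.

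The cause of the lower Nlrp1 levels in C3H was not tested. The sequences just before the starts of both copies are shown as RefSeq has them in the B6 reference (GRCm38.p6), which holds no C3H sequence. Over 237 aligned bases they were 91.6% identical, and capitals mark bases that differ or have no counterpart. RefSeq lists 2 starts for Nlrp1b, and the one shown is the one whose sequence aligns with that of Nlrp1a; the other had no aligned bases with it. Shown are the 250 bases before each of these starts, chr11:71230734-71230983 for Nlrp1b and chr11:71144705-71144954 for Nlrp1a, on the minus strand.
Nlrp1b: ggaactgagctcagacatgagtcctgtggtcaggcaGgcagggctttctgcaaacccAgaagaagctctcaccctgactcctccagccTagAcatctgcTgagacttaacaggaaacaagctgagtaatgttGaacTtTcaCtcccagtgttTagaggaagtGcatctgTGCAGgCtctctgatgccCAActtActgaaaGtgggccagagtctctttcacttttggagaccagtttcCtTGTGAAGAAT
Nlrp1a: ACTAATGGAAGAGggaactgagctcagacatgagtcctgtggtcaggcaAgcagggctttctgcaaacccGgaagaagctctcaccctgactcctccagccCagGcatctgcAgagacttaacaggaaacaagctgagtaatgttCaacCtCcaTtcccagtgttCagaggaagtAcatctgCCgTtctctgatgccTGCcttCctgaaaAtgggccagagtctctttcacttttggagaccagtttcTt
The nearest tested genes outside the cluster were 6330403K07Rik on one side, with 0.718 CPM in C3H and 1.43 CPM in B6 (log2 fold change -0.99, edgeR adjusted p = 0.00257), and Wscd1 on the other, with 0.884 CPM in C3H and 0.914 CPM in B6 (-0.05, adjusted p = 0.900). The neighbour on 1 side was lower in C3H too, by less than either Nlrp1 copy.

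The Naip copies lie together on chromosome 13. Naip5 (ENSMUSG00000071203) and Naip6 (ENSMUSG00000078942), the flagellin sensors, were the closest pair, with coding sequences 97.0% identical over 4209 aligned bases in the B6 reference. They had 128 mismatches, and the longest identical run was 229 bases. The first 90-base window with the median number of mismatches, 2, is shown for both copies, with capitals for the bases that differ. It is at chr13:100316368-100316457 in exon 2 of Naip6 and chr13:100246016-100246105 in exon 1 of Naip5 (GRCm38, minus strand), with exons numbered within the annotated transcript that has the longest coding sequence.
Naip6: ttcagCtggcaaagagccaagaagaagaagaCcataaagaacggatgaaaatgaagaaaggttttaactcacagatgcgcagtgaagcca
Naip5: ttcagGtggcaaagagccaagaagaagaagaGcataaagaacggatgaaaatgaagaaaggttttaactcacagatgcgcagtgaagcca
A short read from much of these genes thus carries few bases that tell the copies apart. Exact copies of a 50-base stretch elsewhere in the annotated transcripts made up 31.5% of Naip1, 19.1% of Naip2, 36.8% of Naip5 and 21.5% of Naip6. At 100 bases these shares were 12.98%, 4.44%, 16.2% and 6.26% in the same order, and the read length is not given in the sources used here. Values of single Naip copies are therefore uncertain wherever the counting split or dropped shared reads.

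Naip6 had 50.1, 67.7, 54.5 and 55.2 CPM in C3H, against 156, 123, 196 and 117 CPM in B6. The lowest B6 library was above the highest C3H library, and B6 varied more. The means were 56.9 ± 7.55 CPM in C3H and 148 ± 36.5 CPM in B6 (SD, n = 4 each), a 2.60-fold lower level in C3H. Its log2 fold change was -1.38 (standard error 0.16, 95% interval -1.74 to -1.02, edgeR adjusted p = 0.000119), and -1.22 without B6 4, the highest library.

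Naip5, the other flagellin sensor, had 85.0, 103, 82.4 and 103 CPM in C3H, against 100.4, 101.5, 176 and 115 CPM in B6. The strains overlapped, and B6 4 stood above the other libraries, as it did for Naip6. The log2 fold change was -0.40 (standard error 0.17, 95% interval -0.78 to -0.02) and did not pass (edgeR adjusted p = 0.129). It was -0.18 without B6 4, and without the 4 libraries with the most pancreatic transcripts it was -0.81 and passed (adjusted p = 0.0338, 2 libraries per strain).

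Naip1 and Naip2, the sensors of type III secretion parts, were at similar levels in both strains. Naip1 (ENSMUSG00000021640) had 38.8, 37.6, 44.8 and 47.9 CPM in C3H, against 41.4, 40.8, 44.97 and 48.0 CPM in B6. Its log2 fold change was -0.05 (95% interval -0.27 to 0.16, edgeR adjusted p = 0.772). Naip2 (ENSMUSG00000078945) had 59.8, 78.7, 81.0 and 87.9 CPM in C3H, against 82.5, 76.1, 95.7 and 74.5 CPM in B6. C3H 1 was the lowest library for Naip2, and the strains otherwise overlapped (log2 fold change -0.10, 95% interval -0.38 to 0.18, adjusted p = 0.646).

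The 4 Naip copies together summed to 234, 287, 263 and 294 CPM in C3H, against 380.0, 341, 513 and 355 CPM in B6. The sums did not overlap, with means of 269 ± 27.3 CPM in C3H and 397 ± 79.0 CPM in B6 (SD, n = 4 each). The log2 ratio was -0.56 (exact two-sided permutation p = 0.0286, the smallest that 4 against 4 allows). The sum does not depend on how reads were split among the 4 copies. Reads dropped as shared, or placed on pseudogenes, stay missing from it. Left out of the sum, Naip6 took most of the difference with it: the other 3 copies averaged 212 ± 23.0 CPM in C3H and 249 ± 45.8 CPM in B6 (log2 ratio -0.23, exact two-sided permutation p = 0.229), a setting added after the values were seen. As a share of the 4-copy counts, Naip6 took 18.8% to 23.6% in C3H and 32.9% to 40.98% in B6. Naip6 had 0.611 ± 0.0587 counts per Naip5 count in C3H and 1.22 ± 0.234 in B6 (SD, n = 4 each), so Naip5 was the more counted copy in every C3H library and Naip6 in every B6 library. In B6 5 the ratio was only 1.01. These counts are not scaled by length, and annotated exons span 6827 bases in Naip6 and 5204 in Naip5. Per kb of exon, Naip5 averaged 23.7 and Naip6 21.7 CPM per kb in B6, with overlap.

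**Figure D2:**
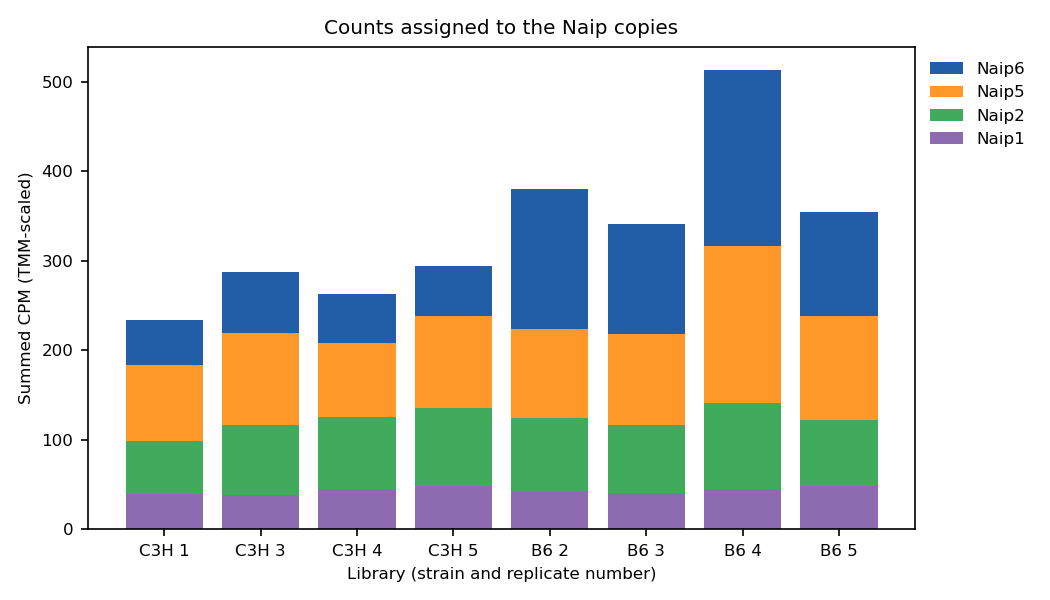
Levels of the 4 Naip copies in each library, in CPM on TMM-scaled library sizes, with C3H libraries left of B6 libraries and the copies in separate colours. The 4 copies summed to 234 to 294 CPM in C3H and 341 to 513 CPM in B6, and Naip6 was the copy whose share was smaller in every C3H library.

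The plot of the Naip copies by library shows that the taller B6 bars differ from the C3H bars mainly in their Naip6 segment, and that the tallest, B6 4, is also tall in Naip5. Naip pseudogenes of the same cluster, which share sequence with the copies, went both ways. Naip3, an unprocessed pseudogene between Naip6 and Naip1, had 5.005, 7.28, 5.98 and 5.40 CPM in C3H, against 2.28, 1.59, 3.05 and 1.93 CPM in B6, without overlap. Its log2 fold change was 1.41 (standard error 0.20, edgeR adjusted p = 0.000393). Of Naip3, 50.4% of 50-base and 29.1% of 100-base stretches had exact copies elsewhere in the annotated transcripts, so its value is uncertain too. Naip3-ps1 averaged 3.34 CPM in C3H and 6.36 CPM in B6 (log2 fold change -0.93, adjusted p = 0.000486). With Naip3 added, the Naip sum still had a log2 ratio of -0.54. The nearest tested genes that flank the cluster passed in neither direction: Smn1, which serves the assembly of splicing particles, had a log2 fold change of 0.04 (adjusted p = 0.844) and Gtf2h2, a subunit of the transcription factor TFIIH, 0.04 (adjusted p = 0.826).

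Nlrc4 (ENSMUSG00000039193, chromosome 17), the partner that NAIP proteins recruit, had 63.8, 65.2, 73.4 and 82.7 CPM in C3H, against 78.7, 78.3, 85.7 and 75.4 CPM in B6. Only C3H 5 reached into the B6 range above its lowest library, and the difference did not pass (log2 fold change -0.16, standard error 0.10, 95% interval -0.37 to 0.06, edgeR adjusted p = 0.294).

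Nlrp6 (ENSMUSG00000038745, chromosome 7), the epithelial sensor, had the highest CPM of the 10 genes and the tightest values. It had 251, 235, 245 and 236 CPM in C3H, against 235, 256, 241 and 231 CPM in B6, and ranked 658th of the tested genes by mean CPM. The strains overlapped throughout, with means of 242 ± 7.30 CPM in C3H and 241 ± 11.1 CPM in B6 (SD, n = 4 each). Its log2 fold change was 0.01 with a 95% interval of -0.16 to 0.17 (edgeR adjusted p = 0.964).

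Casp1 (ENSMUSG00000025888, chromosome 9), the protease that these sensors activate, had 113, 106, 129 and 116 CPM in C3H, against 142, 123, 133 and 136 CPM in B6. Only C3H 4 lay within the B6 range. Its log2 fold change was -0.21 (standard error 0.09, 95% interval -0.39 to -0.02), which did not pass after adjustment over all genes (edgeR adjusted p = 0.118). Il18 (ENSMUSG00000039217, chromosome 9), whose protein caspase-1 matures, had 85.8, 90.8, 109.8 and 112 CPM in C3H, against 94.1, 74.6, 75.6 and 114 CPM in B6. The strains overlapped and B6 was widely spread (log2 fold change 0.15, 95% interval -0.17 to 0.48, adjusted p = 0.519). Of the genes next to these, Casp4 beside Casp1 and Bco2 beside Il18 passed. Bco2, a carotenoid-cleaving enzyme, averaged 48.6 CPM in C3H and 121 CPM in B6 (log2 fold change -1.32, adjusted p = 2.60e-05).

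Levels of different genes were compared per kilobase of annotated exon (CPM per kb). In C3H the order was Il18 at 96.7 ± 12.9, Casp1 at 77.4 ± 6.52, Nlrp6 at 47.6 ± 1.44, Naip5 at 17.9 ± 2.14, Naip2 at 15.9 ± 2.48 and Nlrc4 at 14.8 ± 1.81 CPM per kb (SD, n = 4). Below them came Naip6 at 8.33 ± 1.11, Naip1 at 7.64 ± 0.886, Nlrp1b at 0.199 ± 0.0242 and Nlrp1a at 0.00543 ± 0.00637 CPM per kb. Neighbours in this order overlapped within 3 sets, namely Il18 with Casp1, Naip5 with Naip2 and Nlrc4, and Naip6 with Naip1. In B6 the order was Casp1 at 89.3 ± 5.15, Il18 at 86.9 ± 18.1, Nlrp6 at 47.4 ± 2.18, Naip5 at 23.7 ± 6.91, Naip6 at 21.7 ± 5.35, Naip2 at 16.96 ± 1.99, Nlrc4 at 16.5 ± 0.909, Naip1 at 7.91 ± 0.605, Nlrp1b at 3.61 ± 0.262 and Nlrp1a at 0.199 ± 0.0375 CPM per kb. There Naip6 overlapped with Naip5 and Naip2, whereas in C3H it stood beside Naip1. Nlrp1b and Nlrp1a closed the order in both strains.

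**Figure D3:**
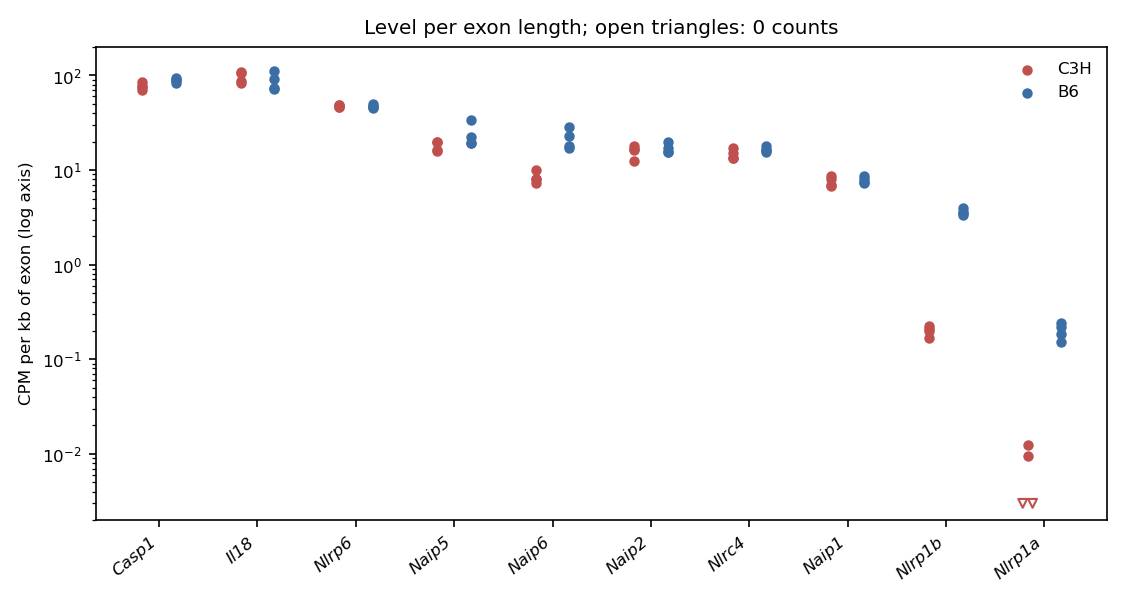
Level of each of the 10 genes in CPM per kb of annotated exon on a log10 axis, C3H left of B6, with points for libraries and open triangles at the bottom for the 2 C3H libraries with 0 counts of Nlrp1a, which a log axis cannot place; Nlrp1b and Nlrp1a are the lowest genes in both strains, and Naip6 is level with Naip5 in B6 and with Naip1 in C3H.

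Beyond these genes, 45 other genes of the inflammasome pathway were listed, 43 were found and 40 were tested. Of those, 15 (37.5%) passed, 6 higher and 9 lower in C3H, beside 21.4% of all genes, and the median log2 fold change was -0.03. Without the 4 libraries with the most pancreatic transcripts, 7 of 40 tested passed, beside 1675 of 18560 genes tested. They were Aim2, Naip3, Nlrp9b, Pycard, Casp4, Gsdmc4 and Il1rn. In the plot of fold changes by role, the largest differences that passed were in sensors, Casp4, Pycard and Gsdmc4.

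**Figure D4:**
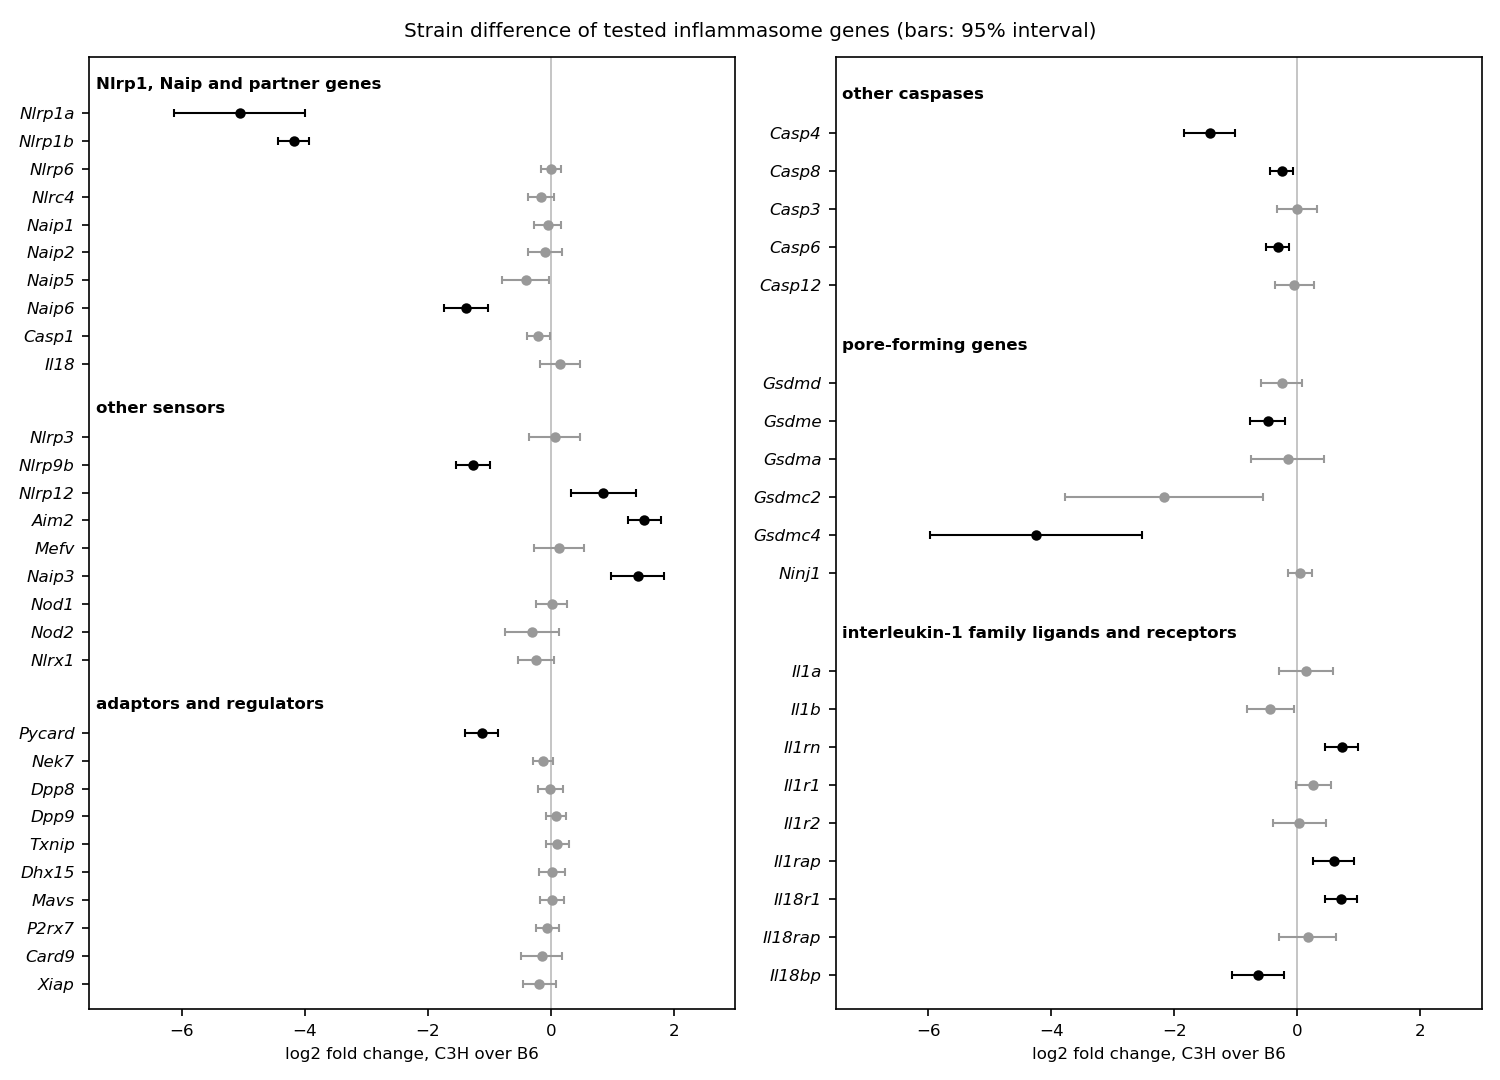
Log2 fold change, C3H over B6, of the 10 genes and of other tested inflammasome pathway genes grouped by role, with 95% intervals; black marks an edgeR adjusted p under 0.05 and grey one above it. Among the black points Nlrp1a, Nlrp1b, Naip6, Nlrp9b, Pycard, Casp4 and Gsdmc4 lie furthest to the left, and Aim2 and Naip3 furthest to the right.

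Among 9 other tested sensors, 3 were higher and 1 lower in C3H, beside 11.3% higher and 10.1% lower of all genes tested. Aim2, a sensor of cytosolic DNA, had 12.9, 10.7, 11.4 and 11.3 CPM in C3H, against 4.01, 4.78, 3.88 and 3.44 CPM in B6, without overlap. It was the sensor with the largest rise (log2 fold change 1.52, standard error 0.12, edgeR adjusted p = 5.26e-06). Nlrp9b, an epithelial sensor of viral RNA in mice, had 10.4, 10.9, 7.55 and 10.7 CPM in C3H, against 22.1, 21.2, 25.9 and 25.9 CPM in B6, also without overlap (log2 fold change -1.27, adjusted p = 2.95e-05). Nlrp12 was higher in C3H at low levels, 0.539 ± 0.123 CPM in C3H and 0.300 ± 0.0422 CPM in B6 (SD, n = 4 each; log2 fold change 0.85, adjusted p = 0.0260), and lost the call in 6 of 8 fits that left out a library, with exceptions for B6 2 and C3H 5 (highest adjusted p 0.0948). The third that rose was the pseudogene Naip3, given above. Nlrp3, named after its values were seen, was at 0.723 CPM in C3H and 0.692 CPM in B6 (adjusted p = 0.860).

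Of 10 tested adaptors and regulators, 1 (10%) passed, below the 21.4% of all genes tested. Pycard, the gene of the adaptor ASC that links sensors to caspase-1, had 67.7, 52.4, 72.5 and 53.2 CPM in C3H, against 146, 136, 118 and 136 CPM in B6. The strains did not overlap, and the log2 fold change was -1.12 (standard error 0.12, edgeR adjusted p = 6.07e-05). Dpp8 and Dpp9, proteases that restrain NLRP1 and were named after their values were seen, had log2 fold changes of -0.00 and 0.08 and did not pass.

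Of 6 tested caspases other than Casp1, 4 were lower in C3H, beside 10.1% of all genes tested, in a list too short to read as a share. Casp4, the sensor of cytosolic lipopolysaccharide that mice carry as caspase-11, had 10.7, 8.66, 14.8 and 8.997 CPM in C3H, against 29.4, 33.7, 20.8 and 32.2 CPM in B6, without overlap (log2 fold change -1.43, standard error 0.19, edgeR adjusted p = 0.000257). Casp6 fell by 0.32 (adjusted p = 0.0189) and Casp8, which starts cell death from death receptors, by 0.26 on the log2 scale (adjusted p = 0.0491). Neither call was stable. Casp8 passed in only 1 of 8 fits that left out a library, the one without C3H 5 (adjusted p up to 0.139), and Casp6 lost the call without B6 3 (0.0634). With library totals as scaling neither passed (adjusted p = 0.0888 for Casp8 and 0.0569 for Casp6).

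Of 6 tested pore-forming genes, 2 were lower in C3H, beside 10.1% of all genes tested, again in a short list. Gsdmc4, a gasdermin C copy, had 1.90, 0.326, 0.281 and 0.107 CPM in C3H, against 31.2, 7.06, 5.40 and 9.03 CPM in B6. The strains did not overlap, but 1 library stood far above the rest in each (log2 fold change -4.25, standard error 0.78, edgeR adjusted p = 0.00244), and the estimate was -3.40 without B6 2, -5.72 without C3H 1 and -2.67 without the 4 libraries with the most pancreatic transcripts. Gsdme averaged 6.86 ± 0.624 CPM in C3H and 9.59 ± 1.51 CPM in B6 (SD, n = 4 each; log2 fold change -0.49, adjusted p = 0.0190), and lost the call without B6 4 (0.0526) or C3H 3 (0.05003). Gsdmd, the target of caspase-1, was abundant in both strains, at 352 ± 76.3 CPM in C3H and 420.1 ± 48.4 CPM in B6, and did not pass (log2 fold change -0.25, adjusted p = 0.282). It was named after its values were seen.

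Of 9 tested interleukin-1 family ligands and receptors, 3 were higher and 1 lower in C3H, beside 11.3% higher and 10.1% lower of all genes tested. Il1rn, the antagonist of the interleukin-1 receptor, averaged 4.74 ± 0.3905 CPM in C3H and 2.89 ± 0.269 CPM in B6 (SD, n = 4 each; log2 fold change 0.72, edgeR adjusted p = 0.00124). Il18r1, a chain of the interleukin-18 receptor, averaged 5.30 ± 0.456 CPM in C3H and 3.23 ± 0.347 CPM in B6 (0.71, adjusted p = 0.00136). Il1rap, the shared accessory chain of interleukin-1 receptors, averaged 7.89 ± 0.760 CPM in C3H and 5.26 ± 1.04 CPM in B6 (0.59, adjusted p = 0.0159). Without the 4 libraries with the most pancreatic transcripts neither Il18r1 (adjusted p = 0.0580) nor Il1rap (0.101) passed. Il18bp, the soluble inhibitor of interleukin-18, averaged 8.56 ± 1.01 CPM in C3H and 13.4 ± 3.81 CPM in B6 (-0.65, adjusted p = 0.0325), and lost the call without B6 2 or 3, or without C3H 1, 3 or 5 (up to 0.0948).

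For each gene of the 10 that passed, the other tested genes with the most similar profile over the 8 libraries were found by Pearson's r of log2 CPM, given as a description. For Nlrp1b they were 4930481A15Rik (r = 0.999), Ccdc114 (0.998) and Trim12a (0.998). For Nlrp1a they were Tmem128 (0.994), Khdrbs1 (0.990) and 4930481A15Rik (0.990). For Naip6 they were Fam102b (0.991), Tnks (0.988) and Fbxl21 (0.985). Many genes shared such profiles, since r reached 0.95 for 465 genes with Nlrp1b, 313 with Nlrp1a and 114 with Naip6, and the 8 points share the split by strain.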

How the data were processed

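Bulk RNA was measured in 8 jejunum libraries, 4 per strain. Per the labels' protocols, Illumina Stranded mRNA libraries were made from RNA with an integrity number above 7. Per the submitters' processing notes, STAR 2.7.9a, HTSeq 2.0.2 and GRCm39 were used. The authors deposited raw counts for 56941 genes. Not given in the sources used here are the annotation release, the read length and the strand and multimapping settings, so reads of gene copies and of overlapping antisense genes may be split or lost. Symbols, exon lengths, gene order and sequences came from GENCODE M21 and RefSeq on GRCm38, the earlier build (52000 identifiers matched, 4941 did not; the listed Naip4 and Naip7 were not matched).

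Counts were fitted in edgeR 4.0.16 (R 4.3.3) with TMM, the default filterByExpr filter (minimum count 10) and its quasi-likelihood test, adjusted over 18025 genes, threshold 0.05. Log2 fold changes are C3H over B6. Standard errors were taken from the F statistic and intervals from a t distribution. Summed copies were compared by exact permutation over libraries. Alignments used Biopython 1.88 and permutations SciPy 1.17.1. Counting intervals cover counting error only.

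No pair of libraries within a strain agreed at counting noise (chi-square per degree of freedom 21.2 to 81.2). The genes and lists were chosen with earlier results of these data known. Named were all 10 genes; per pathway list up to 4 genes past the threshold with the smallest adjusted p; for each of the 10 past the threshold the 3 most similar profiles; and nearest tested neighbours. Of the genes so named, 1 is counted in its list but not reported here. Alternatives were DESeq2 1.42.0, limma-voom (limma 3.58.1), robust dispersion, other scaling factors, no filter, a mean of at least 100 counts, a threshold of 0.01, a replicate block, leaving out each library, and leaving out the 4 with the most pancreatic transcripts. Sums with Naip3 and without Naip6 were added after the data were seen.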

Additional observations from a re-analysis of the deposited data

Results flagged for a closer look

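In 3 of 54 groups of 4 libraries, 1 library stood further from the others than Dixon's 95% limit, about as many as the 1 in 20 that chance gives. For Nlrp9b, C3H 4 was lowest at 7.55 CPM, against 10.4 to 10.9 CPM in the other C3H libraries, a gap of 0.855 of the range. For Gsdmc4, C3H 1 was highest at 1.90 CPM, against 0.107 to 0.326 CPM in the other C3H libraries (0.878 of the range), and B6 2 was highest at 31.2 CPM, against 5.40 to 9.03 CPM in the other B6 libraries (0.859). None of the 10 main genes had such a library in either strain.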

How the results depend on the processing

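Nlrp1b and Naip6 kept their direction and their call under all 20 alternatives (log2 fold change -4.26 to -4.11 and -1.59 to -1.22), and Nlrp1a under the 19 in which it was tested; it fell below the mean of 100 counts. At a threshold of 0.01, 2326 genes and 8 pathway genes passed. Without the 4 libraries richest in pancreatic transcripts, 1675 genes and 7 pathway genes passed. The Naip sum without Naip6 had a log2 ratio of -0.23. Nlrp6 changed sign around 0 with DESeq2 size factors (log2 fold change -0.0099), no filter (-0.024), DESeq2 (-0.0098), the replicate block (-0.038), the same 6 libraries with no block (-0.039) and over the fits that left out a library (-0.024 to 0.036), and Naip1 with library totals (0.0014); none of these passed, and the cause was not tested. With library totals as scaling, 2194 genes were higher and 1402 lower, against 2040 and 1817. Leaving out a library gave 3099 to 3682 genes, 3 of the 10 genes and 10 to 15 pathway genes. Same-numbered libraries deviated together with correlations of -0.05 to 0.18, so the numbers are not taken as pairs; the replicate block on 6 libraries gave 2919 genes (3212 without it), 3 of the 10 genes and 11 pathway genes. Depth limits Nlrp1a, with 0 to 2 counts per C3H library.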
